A study of Mus musculus with 70 samples.

Results

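The cell cycle and mitosis genes described here are 49 genes whose products copy the DNA, drive cells into mitosis, hold back chromosome separation until every chromosome is attached to the spindle, and split the daughter cells. They were taken by symbol from a list drawn up with earlier results of these data known, and each symbol matched 1 of the 55487 named lines in the count tables. By role they comprise 7 regulators, 6 genes of the spindle checkpoint and the anaphase-promoting complex (APC/C), 3 of the chromosomal passenger complex, 6 of the kinetochore and centromere, 10 of the spindle and cytokinesis, 3 used as proliferation markers and 14 of DNA replication and nucleotide synthesis.

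Transcription of these genes follows the division cycle. Replication genes are switched on by E2F factors as cells enter S phase, and mitotic genes are switched on late in the cycle. The DREAM complex holds down genes of both kinds in resting cells. Promoters of mitotic genes often carry elements named the cell cycle genes homology region (CHR) and the CCAAT box. In a tumor, RNA of these genes comes from dividing cancer cells and also from leukocytes that divide in place, such as activated T cells, while mature neutrophils do not divide.

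The RNA came from B16F10 tumors, a transplanted melanoma line, grown on the flanks of C57BL/6 mice of both sexes, which were 6 to 8 weeks old. Tumors were dissociated and sorted into CD45+ cells, which are leukocytes of all kinds, and CD45- cells, and the RNA of each fraction was counted by QuantSeq, which reads the 3' ends of transcripts and tags molecules. The 70 libraries were collected on day 3 or day 7 after sham ablation (control), after partial ablation by histotripsy, a focused ultrasound treatment that breaks up tissue by cavitation (histotripsy-treated), or from the unablated tumor on the opposite flank of ablated mice (histotripsy-abscopal). On day 3 there were 4 control, 6 treated and 7 abscopal libraries of CD45+ cells, and 4, 7 and 7 of CD45- cells. On day 7 there were 10 control, 3 treated and 4 abscopal libraries of CD45+ cells, and 11, 3 and 4 of CD45- cells. The sources used here do not state how many mice went into a library, which libraries came from the same mouse, the sex behind a library or a batch. The p-values therefore measure the spread between these libraries, which may be partly technical.

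Library totals ran from 887798 to 3820705 counts, and levels are given as counts per 1000000 counts of the library total (CPM). Because QuantSeq counts 1 tag per transcript end, CPM was not divided by gene length. The sort labels held: Ptprc, which encodes CD45, lay between 651 and 1252 CPM in every CD45+ library and between 0 and 1.48 CPM in every CD45- library. The 8 melanoma markers summed to 27583 to 42963 CPM in CD45- libraries. Among day 3 CD45+ libraries, treated replicate 3 stood apart with 26763 CPM of the 6 neutrophil markers, against 7889 CPM in the next treated library, and abscopal replicates 1 and 4 held 1407 and 2803 CPM of melanoma markers, against at most 495 CPM in the other abscopal libraries.

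To show the promoter elements that the background names, 6 promoter stretches were chosen across the roles: Cdk1, Ccnb2 and Ube2c from mitosis, Mki67 as the proliferation marker, and Mcm6 and Rrm2 from replication. RefSeq promoter windows of the GRCm38.p6 build were found for 43 of the 49 members. Mcm4, Gins2, Tpx2, Kif20a, Aurkb and Ccna2 were not matched. Each stretch is 120 bases, ends just before the earlier of the RefSeq and GENCODE starts, which for Cdk1, Ube2c and Rrm2 lies upstream of the RefSeq start, and is written 5′ to 3′ on the gene's strand. Capitals mark the letters searched on both strands: TTTGAA for the CHR, CCAAT for the CCAAT box (ATTGG on the other strand), and TTTGGCGC or TTTCCCGC for E2F sites. Coordinates are chr10:69352939-69353058 (minus strand) for Cdk1, chr9:70421555-70421674 (minus) for Ccnb2, chr2:164769778-164769897 (plus) for Ube2c, chr7:135716380-135716499 (minus) for Mki67, chr1:128359706-128359825 (minus) for Mcm6 and chr12:24708121-24708240 (plus) for Rrm2.
Cdk1: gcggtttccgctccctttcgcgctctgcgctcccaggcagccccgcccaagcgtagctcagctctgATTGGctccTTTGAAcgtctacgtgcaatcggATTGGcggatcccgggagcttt
Ccnb2: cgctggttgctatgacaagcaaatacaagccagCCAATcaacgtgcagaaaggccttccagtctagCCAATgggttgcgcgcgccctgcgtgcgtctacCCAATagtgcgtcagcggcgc
Ube2c: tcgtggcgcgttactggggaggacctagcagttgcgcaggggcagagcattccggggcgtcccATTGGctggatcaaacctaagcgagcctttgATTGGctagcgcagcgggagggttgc
Mki67: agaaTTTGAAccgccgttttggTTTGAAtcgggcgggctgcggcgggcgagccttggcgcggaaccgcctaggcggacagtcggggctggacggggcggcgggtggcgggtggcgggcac
Mcm6: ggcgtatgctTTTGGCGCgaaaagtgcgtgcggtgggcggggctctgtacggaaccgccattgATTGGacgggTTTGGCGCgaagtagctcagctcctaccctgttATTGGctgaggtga
Rrm2: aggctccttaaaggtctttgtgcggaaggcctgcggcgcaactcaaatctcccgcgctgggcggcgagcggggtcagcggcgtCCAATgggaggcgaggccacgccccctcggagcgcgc

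The Cdk1 stretch held TTTGAA between 2 ATTGG matches, whereas Ccnb2 held 3 CCAAT matches and Mcm6 held 2 TTTGGCGC matches beside 2 ATTGG matches. Over whole windows of 300 bases (250 before and 50 after the RefSeq start), TTTGAA was present in 22 of the 31 matched mitosis and control members (71.0%) and in 1 of the 12 matched replication members, Mcm2. Among all 27025 promoters the share was 18.1%. The E2F letters showed the opposite split, with 6 of the 12 replication members and 0 of the 31 others, against 1.63% of all promoters. CCAAT was found in 30 of the 43 members (69.8%) and in 37.9% of all promoters. These matches describe letters in a window and are not sites shown to be used.

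The summed level of the 49 genes had its lowest mean in the CD45+ cells of treated tumors on day 3, and every CD45+ library lay below every CD45- library. In day 3 CD45+ cells the sums were 2791, 2655, 3362 and 3109 CPM in control replicates 1 to 4 (mean 2979 ± 318.5, SD, n = 4) and 1886, 1310, 938, 2368, 2361 and 1597 CPM in treated replicates 1 to 6 (1743 ± 574.2, SD, n = 6). Abscopal libraries ran from 1987 to 3204 CPM with a median of 2345 CPM (mean 2425 ± 425.9, SD, n = 7). All 6 treated sums lay below all 4 control sums, while the abscopal sums overlapped both groups. In bulk RNA, fewer cells of a type and less RNA per cell cannot be told apart. In CD45- cells of day 3 the medians were 4650 CPM in control, 4563 CPM in treated and 3934 CPM in abscopal libraries, and the ranges of the 3 groups overlapped (3874 to 5644, 4318 to 5851 and 3742 to 5195 CPM).

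**Figure D1:**
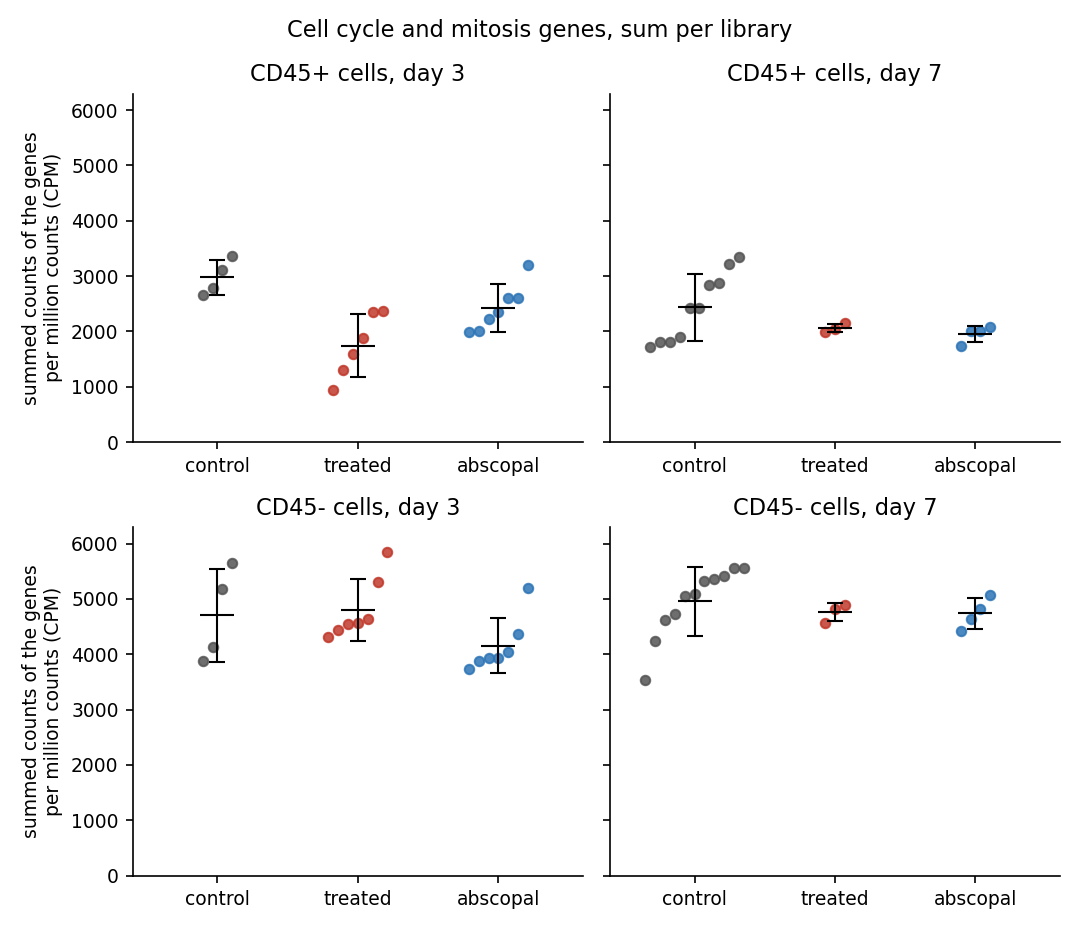
Summed CPM (linear axis from 0) of the 49 cell cycle and mitosis genes in each library, by fraction, day and treatment; points are libraries and bars give the mean ± SD. In day 3 CD45+ cells the 6 treated libraries (938 to 2368 CPM) lie below the 4 control libraries (2655 to 3362 CPM), while in the other panels the groups overlap.

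In the comparison of treated with control CD45+ cells on day 3, which asks how ablation changed the leukocytes of the ablated tumor, 16 of the 45 members tested were lower in treated tumors and 0 were higher at a Benjamini-Hochberg adjusted p below 0.05 in the quasi-likelihood test of edgeR, which gave all adjusted p-values here. Of all 10264 genes tested, 1.59% were lower and 7.8% changed in either direction. Among the members, 28 had an unadjusted p under 0.05, all toward lower values, and 44 of the 45 fold changes were below 0, with a median log2 fold change of −0.72 against −0.01 over all genes. The 16 were Cdk1, Ccnb2, Plk1, Bub1, Bub1b, Mad2l1, Ube2c, Aurkb, Cdca8, Cenpa, Ndc80, Tacc3, Cdca3, Mcm2, Mcm6 and Rrm2. For 15 members the 6 treated libraries all had lower CPM than the 4 control libraries, a pattern found in 6.07% of all genes. With library totals in place of TMM scaling factors, the median of all genes moved to −0.22 and that of the members to −0.93. The calls among all genes then went from 163 lower of 801 to 650 lower of 1063, and 23 members were called, all lower.

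Cdk1, the kinase that drives entry into mitosis, stood at 35.6, 46.9, 90.9 and 83.7 CPM in the control libraries and at 22.8, 18.4, 10.2, 26.3, 31.8 and 26.3 CPM in the treated libraries. Every treated value was below every control value. Its log2 fold change was −1.31 (SE 0.313, adjusted p = 0.0138). Plk1, a kinase that acts from mitotic entry to cytokinesis, was at 34.2 to 61.7 CPM in control and 7.62 to 29.8 CPM in treated libraries (−1.05, SE 0.289, adjusted p = 0.0274). Ccnb2, a B-type cyclin that partners Cdk1, was at 22.1, 35.8, 50.4 and 48.2 CPM in control libraries and overlapped the treated range of 10.9 to 28.2 CPM (−0.88, SE 0.252, adjusted p = 0.0337). The remaining regulators were not called. The log2 fold changes were −0.85 (adjusted p = 0.0598) for Ccna2, the cyclin of S phase and G2, −0.80 (0.129) for Ccne1, the cyclin of S phase entry, and −0.73 (0.252) for Ccnb1, the other B-type cyclin. For Aurka, a kinase of the spindle poles, it was −0.00 (SE 0.227), with a sign that changed when libraries were left out.

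The checkpoint and APC/C genes had the lowest median fold change of the roles, at −1.10, and 4 of the 5 tested were lower. Bub1b, a checkpoint kinase homologue that holds the APC/C inactive, had 15.4, 17.1, 19.0 and 16.3 CPM in control libraries and 7.59, 1.90, 3.01, 5.63, 9.73 and 6.75 CPM in treated libraries (−1.36, SE 0.323, adjusted p = 0.0136). Ube2c, the ubiquitin-conjugating enzyme of the APC/C, had 47.2, 51.8, 70.6 and 63.7 CPM against 32.03, 22.9, 16.3, 16.3, 32.4 and 20.9 CPM (−1.12, SE 0.237, adjusted p = 0.00692). Neither gene's groups overlapped. Mad2l1, which encodes the checkpoint protein that binds Cdc20, had 45.2 to 72.6 CPM in control and 19.3 to 33.7 CPM in treated libraries, again without overlap (−0.99, SE 0.209, adjusted p = 0.00692). Bub1, a kinase at unattached kinetochores, was lower with overlapping groups (−1.10, SE 0.305, adjusted p = 0.0294). Ttk, the kinase at the head of the checkpoint, had a fold change of −0.31 and was not called. Cdc20, the activator of the APC/C, failed the count filter, with 5 to 22 counts in control, 3 to 8 in treated and 0 to 19 in abscopal libraries.

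Among the 3 genes of the chromosomal passenger complex, which corrects faulty spindle attachments, Aurkb and Cdca8 were lower. Aurkb, its kinase, had 19.2, 10.5, 23.5 and 20.4 CPM in control libraries and 3.37, 6.35, 4.22, 4.38, 9.73 and 10.1 CPM in treated libraries. The groups were separate by a small margin, 10.5 against 10.1 CPM, and the log2 fold change was −1.29 (SE 0.339, adjusted p = 0.0222). Cdca8, the subunit known as borealin, changed by −0.78 (SE 0.242, adjusted p = 0.0493). Birc5, which encodes survivin, was the most abundant of the 3 at 232 CPM in control and 131 CPM in treated libraries (means, SD 38.1 and 68.7), and its change of −0.64 did not pass the test (adjusted p = 0.168).

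At the kinetochore and centromere, 2 of 6 members were lower. Cenpa, the histone H3 variant that marks the centromere, was at 101, 116, 125 and 120 CPM in control libraries and 57.3, 48.2, 37.4, 43.8, 74.0 and 49.9 CPM in treated libraries. It had the smallest adjusted p of all members (log2 fold change −0.95, SE 0.186, adjusted p = 0.00413), and its groups did not overlap. Ndc80, which anchors microtubules to the kinetochore, was at 19.2 to 30.1 CPM in control and 4.22 to 18.8 CPM in treated libraries (−0.96, SE 0.261, adjusted p = 0.0255). The log2 fold changes of Nuf2 and Spc25, its partners in the same complex, of the kinesin gene Cenpe and of Cenpf, which encodes a large kinetochore protein, ranged from −0.88 to −0.50 and were not called.

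Of the 8 spindle and cytokinesis genes tested, only Tacc3, a spindle stabiliser, was lower (41.9 to 59.5 CPM in control and 15.2 to 42.8 CPM in treated libraries, log2 fold change −0.83, SE 0.211, adjusted p = 0.0189). Tpx2, which activates Aurka on the spindle, had a change of −0.63 (adjusted p = 0.0576), and the spindle kinesin gene Kif11 had −0.55 (0.218). Hmmr and Nusap1, which bind spindle microtubules, had −0.77 and −0.51, and neither passed. Among the others, Anln, a scaffold of the cleavage furrow, was at −0.18 (SE 0.401), Prc1, which bundles the central spindle, at −0.11 (SE 0.364), and Kif23, a kinesin of the midbody, at 0.01 (SE 0.167), which became −0.20 with library totals. Kif2c had 4 to 13 counts in control and 1 to 6 in treated libraries and was not tested. Kif20a had 0 to 7 counts in any library of the series and was tested nowhere.

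Of the 3 proliferation markers only Cdca3 was called, and differences between the 3 genes were not tested. Cdca3, a trigger of mitotic entry, was lower (−0.92, SE 0.278, adjusted p = 0.0456). Top2a, which untangles sister DNA and had the highest CPM of the list, was at 450, 395, 468 and 426 CPM in control libraries and 270, 150, 106, 423, 368 and 177 CPM in treated libraries (−0.62, SE 0.245, adjusted p = 0.125). Its treated libraries split, with replicates 4 and 5 near the controls and replicates 2, 3 and 6 well below. Mki67, the gene of the Ki-67 antigen, was at 81.8, 61.7, 65.4 and 68.2 CPM in control and 66.6, 55.9, 38.6, 68.2, 65.5 and 58.7 CPM in treated libraries, and its groups overlapped (−0.02, SE 0.189, adjusted p = 0.966).

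Among the 13 replication and nucleotide genes tested, 3 were lower and the median fold change was −0.50. Mcm2 and Mcm6, subunits of the helicase that opens the DNA, were at 46.2 to 61.5 and 119 to 156 CPM in control libraries and at 18.7 to 40.2 and 39.8 to 92.0 CPM in treated libraries, without overlap. Their log2 fold changes were −0.83 (SE 0.218, adjusted p = 0.0221) and −0.72 (SE 0.195, adjusted p = 0.0248). Rrm2, the regulated subunit of ribonucleotide reductase, went from 54.9, 55.1, 72.0 and 80.5 CPM to 40.5, 30.5, 10.2, 35.1, 50.6 and 31.0 CPM (−0.81, SE 0.227, adjusted p = 0.0299). Pcna, the sliding clamp, overlapped between groups, with 148, 163, 171 and 177 CPM in control and 121, 145, 104, 149, 153 and 163 CPM in treated libraries (−0.03, SE 0.127, adjusted p = 0.923). Of the helicase loaders, Cdc6 had −0.93 (adjusted p = 0.0838) and Cdt1 had −0.15. The other helicase genes Mcm3, Mcm4, Mcm5 and Mcm7 ranged from −0.81 to −0.29. Rrm1, the large reductase subunit, Tyms, the thymidylate synthase, and Tk1, the thymidine kinase, ranged from −0.52 to −0.42. None of these passed the test. Gins2, a subunit of the active helicase, had 0 to 6 counts in any library and was not tested.

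**Figure D2:**
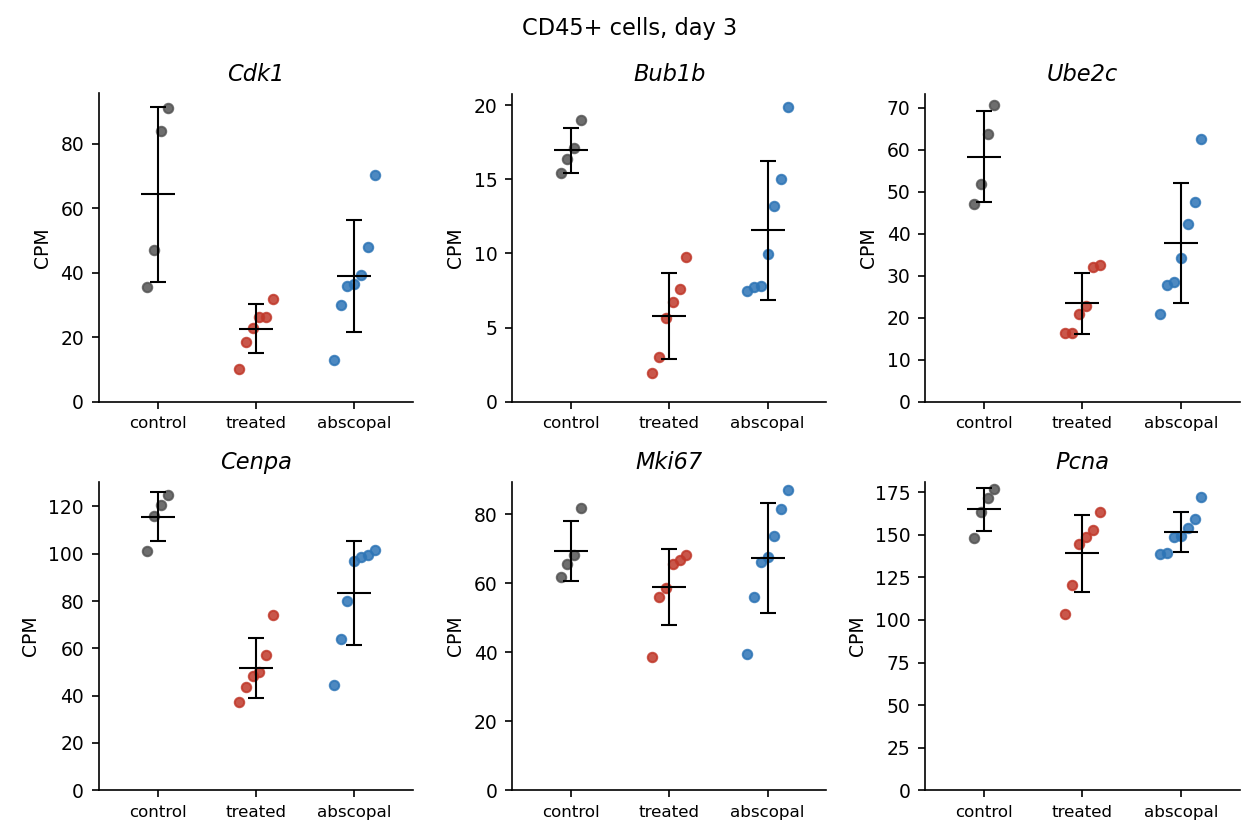
CPM (linear axes from 0) of Cdk1, Bub1b, Ube2c, Cenpa, Mki67 and Pcna in each day 3 CD45+ library; points are libraries and bars give the mean ± SD. Treated libraries lie below all control libraries for Cdk1, Bub1b, Ube2c and Cenpa, and overlap them for Mki67 (38.6 to 68.2 against 61.7 to 81.8 CPM) and Pcna (104 to 163 against 148 to 177 CPM).

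The 16 calls were not equally stable when each of the 10 libraries was left out in turn: Bub1b, Cenpa, Mad2l1 and Ube2c were called in all 10 fits, Cdk1, Aurkb, Mcm2 and Tacc3 in 8, and Cdca3 and Cdca8 in 3, and each of the 16 stayed below 0 in every fit. Calls fell to 4 members without control replicate 3, 5 without control replicate 4 and 9 without treated replicate 2, and a fit to these groups alone gave 9. Calls over all genes moved too, from 334 to 1103 over the fits that left out a library, against 801 with all libraries. Without treated replicate 3, the library rich in neutrophil markers, 11 members were lower and the median was −0.60.

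Marker RNA of leukocyte types differed between the same libraries. The 8 T cell markers, all detected in each library, summed to 1948 to 2456 CPM in control and 429 to 1768 CPM in treated libraries, without overlap. The 6 NK cell markers summed to 1008 to 1365 against 211 to 1334 CPM, and the 8 monocyte and macrophage markers to 2989 to 3311 against 1494 to 3824 CPM. The 6 neutrophil markers summed to 354 to 2699 against 1321 to 26763 CPM, and melanoma markers to 187 to 435 against 190 to 476 CPM, with Tyr at 0 in some libraries of both groups. Erythroid markers summed to 71.1 to 995 CPM in control and 62.8 to 7287 CPM in treated libraries, the highest again in replicate 3. The transcript CT010467.1, which carries ribosomal RNA sequence, took 6.99% to 9.44% of the counts in control, 7.17% to 11.7% in treated and 7.88% to 15.98% in abscopal libraries. The library with the lowest sum of cell cycle and mitosis genes, treated replicate 3 (938 CPM), also had the least T cell marker RNA (429 CPM) and the most neutrophil marker RNA. Divided by the T cell marker sum, the members' sum was 1.24 to 1.57 in control, 1.33 to 2.19 in treated and 1.06 to 1.45 in abscopal libraries, so that the treated and control ranges overlapped on this scale. The part of cell composition in the member differences was not tested.

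**Figure D3:**
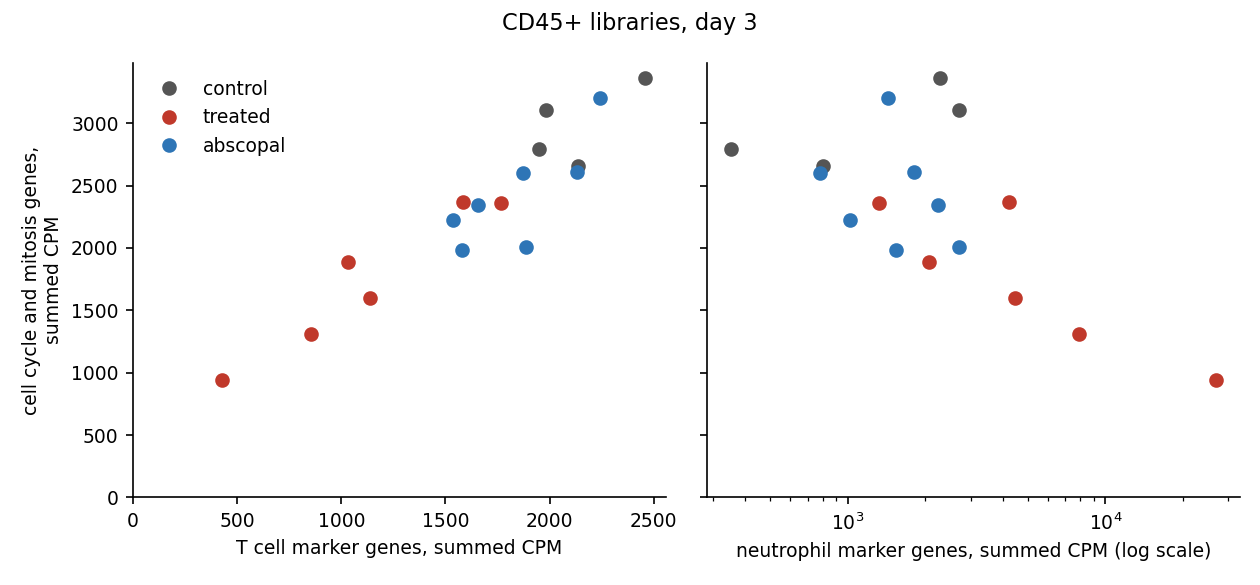
Summed CPM of the 49 cell cycle and mitosis genes (vertical, linear from 0) against the summed CPM of 8 T cell markers (left, linear from 0) and 6 neutrophil markers (right, log axis) in the day 3 CD45+ libraries, each point a library. The treated library with 938 CPM of the genes has the lowest T cell marker sum (429 CPM) and the highest neutrophil marker sum (26763 CPM).

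Other genes of the pathway, a list of 104 of which 94 were tested, had 4 genes lower and 3 higher in this comparison. Of all 10264 genes tested, 163 were lower and 638 higher, 7.8% in either direction. The list was thus called about as often as all genes. Of the 94 fold changes 81 were below 0, with 31 lower and 6 higher at an unadjusted p under 0.05 and a median of −0.40. The lower genes were Gmnn, which blocks licensing of replication origins (16.2 against 35.9 CPM, log2 fold change −0.95, adjusted p = 0.00227), Fbxo5, an APC/C inhibitor (−0.94, adjusted p = 0.0141), Cenpw, a centromere gene (−0.94, adjusted p = 0.0172), and Ncaph, a condensin subunit (−0.96, adjusted p = 0.0185). Cdkn1a, the p21 inhibitor of cyclin-dependent kinases, was higher at 873 against 574 CPM (0.84, adjusted p = 0.0123), as was Mdm2, the ubiquitin ligase of p53, at 357 against 236 CPM (0.83, adjusted p = 0.00903). Both are targets of p53 and were the 2 genes called of the 8 tested inhibitors and p53 targets. The 8 were split, with 3 higher and 2 lower at an unadjusted p under 0.05. Their median log2 fold change was 0.05, and the lowest was −1.09. Ckap2l, a spindle gene, was higher at 30.3 against 14.9 CPM (1.25, adjusted p = 0.0134). None of the 7 G1 cyclin and kinase genes, the 13 genes of the E2F and DREAM factors or the 5 phosphatase and checkpoint kinase genes was called.

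The comparison of abscopal with control CD45+ cells on day 3 asks about the leukocytes of the tumor that was not ablated. No member was called, by edgeR (0 of 45, with 0% of all genes) or by DESeq2 (0), and 6 had an unadjusted p under 0.05, all lower. Over all 10264 genes, that p gave 289 lower and 507 higher. The median of the members was −0.18, and the range ran from −0.69 for Ccne1 to 0.65 for Prc1. Cdk1 ranged from 12.9 to 70.1 CPM over the abscopal libraries with a median of 36.5 CPM, overlapping controls (−0.63, SE 0.29, adjusted p = 0.623). Cenpa was at 44.6 to 101 CPM, with replicates 1 and 4, the libraries with the most melanoma marker RNA, at 44.6 and 63.8 CPM (−0.38, adjusted p = 0.632). Without those libraries the count remained 0.

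Set against abscopal tumors, treated tumors had 3 members lower in day 3 CD45+ cells and 0 higher, while 0.565% of all genes were lower and 5.44% changed in either direction. These were Cenpf at 27.2 against 46.1 CPM (means, −0.66, SE 0.184, adjusted p = 0.0383), Cenpa at 51.8 against 83.5 CPM (−0.58, SE 0.165, adjusted p = 0.0411) and Ndc80 at 11.8 against 22.3 CPM (−0.81, SE 0.232, adjusted p = 0.0438), all from the kinetochore and centromere group. Another 20 members had an unadjusted p under 0.05, all lower, and the median was −0.45. Cdc6 had the lowest fold change (−0.96, adjusted p = 0.056), and Cdk1 and Ube2c were at −0.68 and −0.59. The treated libraries are the same as in the comparison with control, so the values of both comparisons are not independent. The count was 0 in a fit to the compared groups alone and 0 without treated replicate 3. When any library was left out the count was 0 to 8, beside 264 to 862 calls over all genes. Without abscopal replicates 1 and 4 it was 3, with Cenpa, Cdc6 and Mcm6 called and Cenpf and Ndc80 not. With library totals it was 4, and the all-gene calls went from 58 lower of 558 to 89 lower of 434 at a median of −0.15. Of the 94 other pathway genes tested, 2 were lower and 3 higher, near the share of all genes in either direction (58 lower and 500 higher of 10264, 5.44%). Gmnn (−0.59) and Smc4, a condensin subunit (−0.53), were lower, and Cdkn1a (0.80), Mdm2 (0.68) and Ckap2l (0.98) were higher, each with an adjusted p below 0.05.

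On day 7 no member was called in CD45+ cells in any of the 3 comparisons by edgeR or DESeq2 (0 of 47 tested), and 0% of the 10817 genes were called. Sums were 1719 to 3346 CPM in control, 1999, 2043 and 2151 CPM in the 3 treated libraries and 1737 to 2073 CPM in abscopal libraries. The treated and abscopal sums lay in the lower part of the control range. Treated against control, 3 members had an unadjusted p under 0.05, all lower, with a median of −0.25 and a range from −0.73 for Ccne1 to 0.05 for Cdca3. Abscopal against control, 9 had an unadjusted p under 0.05 and all 47 fold changes were below 0, with a median of −0.32 and a lowest value of −0.92 for Cdc20. The same controls served both comparisons. Treated against abscopal, 1 member had an unadjusted p under 0.05 in the higher direction, with a median of 0.05. Over all 10817 genes, that p gave 176 lower and 168 higher in treated against control. It gave 365 and 435 in abscopal against control, and 141 and 149 in treated against abscopal. Cdk1 was at 25.9 to 78.4 CPM in control, 33.9, 41.6 and 45.6 CPM in treated and 12.3 to 44.3 CPM in abscopal libraries, with overlap between all groups. Cenpa was at 56.0 to 114, 63.9 to 89.6 and 42.4 to 93.5 CPM.

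The change of the treatment effect from day 3 to day 7 in CD45+ cells was tested as an interaction over 11251 genes. It called 0 of the 47 members by edgeR and by DESeq2, against 2.7% of all genes, with 9 at an unadjusted p under 0.05, all toward a higher effect on day 7, and a median of 0.47. Aurkb had the largest value (1.15, adjusted p = 0.168), and Cdk1 had 1.01 (SE 0.452, adjusted p = 0.258). The all-gene calls were 275 lower of 304, and with library totals 161 lower of 235 with an all-gene median of 0.22. A difference between the days in the members' response was thus not detected at these group sizes, and the 16 calls of day 3 against 0 of day 7 do not show one. Control CD45+ cells of day 7 against day 3 had 0 members called by either tool and 0.00889% of all genes, with 8 at an unadjusted p under 0.05, all lower, and a median of −0.29.

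In CD45- cells, which carry the melanoma markers, no member was called in any of the 6 treatment comparisons by edgeR. Fibroblast markers differed between these libraries on day 3, with a mean of 3594 CPM in treated (56.3 to 13338), 359.7 CPM in control (17.1 to 1047) and 468 CPM in abscopal libraries (141 to 814), beside melanoma markers at 34481, 38121 and 38778 CPM, and their part in the member values was not tested. On day 3, 0.0916% of 10921 genes were called in treated against control, 0% in abscopal against control and 0.147% in treated against abscopal. The members' medians were 0.05, −0.19 and 0.22, with 1 higher, 11 lower and 15 higher at an unadjusted p under 0.05. Over all 10921 genes, that p gave 503 lower and 651 higher in treated against control. It gave 270 and 297 in abscopal against control, and 660 and 814 in treated against abscopal. DESeq2 called 0, 0 and 4 members. The shares of all genes given here are those of edgeR, so the 4 stand without a share. Ccnb1 came nearest in treated against abscopal, at 66.4 ± 8.97 against 46.2 ± 4.97 CPM (mean ± SD, n = 7 and 7, log2 fold change 0.49, SE 0.107, adjusted p = 0.053). Its values were 56.7 to 80.8 CPM in treated and 38.0 to 52.2 CPM in abscopal libraries. The share of all genes with ranges apart in this direction is not given here, so the separation is not read as a result. Cdk1 was at 89.2, 141 and 219 CPM (lowest, median, highest) in control, 117, 134 and 215 in treated and 74.99, 113 and 177 in abscopal libraries, and Mki67 at 78.4 to 96.5, 59.3 to 98.0 and 60.5 to 90.2 CPM, with overlap throughout.

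On day 7, 0% of 10996 genes were called in CD45- cells of treated against control, 0.291% in abscopal against control and 0% in treated against abscopal. The members' medians were 0.02, −0.06 and 0.06, with 1 higher, 3 lower and 3 higher at an unadjusted p under 0.05, and DESeq2 called 0 in each. Over all 10996 genes, that p gave 247 lower and 421 higher in treated against control. It gave 411 and 640 in abscopal against control, and 335 and 406 in treated against abscopal. The lowest and highest fold changes against control were −0.16 for Mcm2 and 0.34 for Bub1 in treated, and −0.35 for Nusap1 and 0.33 for Kif2c in abscopal tumors. Top2a was at 521 to 915, 674 to 685 and 639 to 749 CPM in control, treated and abscopal libraries. Between days, control CD45- cells had 0 members called (0% of genes, 0 at an unadjusted p under 0.05), and the change of the treatment effect between days had 0 (0% of genes, 1 lower and 1 higher at an unadjusted p under 0.05), with DESeq2 at 0 for both.

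**Figure D4:**
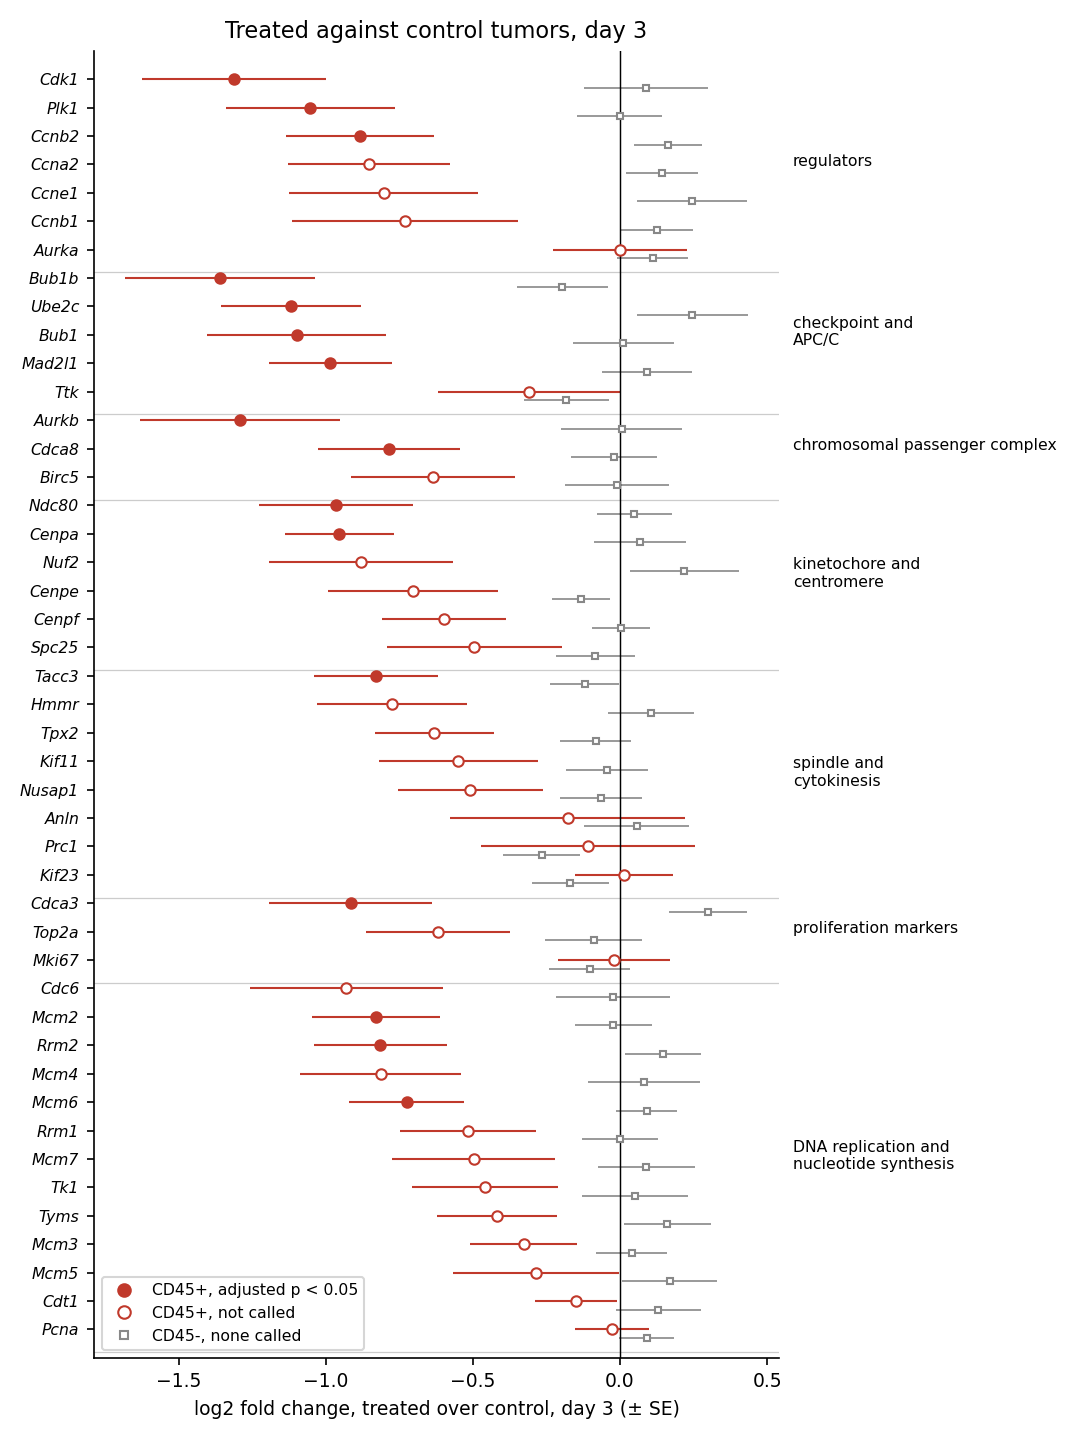
Log2 fold changes (± SE) of treated over control tumors on day 3 for the 45 members tested in both fractions, grouped by role; circles are CD45+ cells (filled where the adjusted p is below 0.05) and squares are CD45- cells. CD45+ values run from −1.36 for Bub1b to 0.01 for Kif23, and CD45- values stay between −0.27 for Prc1 and 0.30 for Cdca3.

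Whether the day 3 effect of treatment differed between the fractions was tested as an interaction over 12392 genes. For 7 of the 47 members tested the effect was lower in CD45+ than in CD45- cells, and for 0 it was higher. Of all genes 0.5% were lower and 1.91% called in either direction. Ube2c differed most among the 7 (−1.35, SE 0.32, adjusted p = 0.0212). Its mean was 58.3 CPM in control and 23.5 CPM in treated CD45+ cells, against 80.5 and 95.7 CPM in CD45- cells. The other members were Cenpa (−1.01, SE 0.248, adjusted p = 0.0262), Mad2l1 (−1.07, adjusted p = 0.0277), Cdca3 (−1.20, adjusted p = 0.0306), Ccnb2 (−1.05, adjusted p = 0.0353), Mcm6 (−0.80, adjusted p = 0.0455) and Rrm2 (−0.95, adjusted p = 0.046). Cdk1 had the lowest value, −1.40, and did not pass (SE 0.398, adjusted p = 0.0552). The median was −0.76, and 26 members had an unadjusted p under 0.05, all lower.

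Over fits that left out a library, calls over all genes in this interaction ranged from 81 to 427, against 237 with all libraries. The count of members called ranged from 0 to 15. It was 0 without CD45+ control replicate 3 or CD45- control replicates 1 or 2, and 1 without CD45+ control replicate 4. It was 4 without CD45+ treated replicates 2, 3 or 6 or CD45- treated replicate 3, the library with the most fibroblast marker RNA, and 11 without CD45+ control replicate 2, CD45+ treated replicate 4 or CD45- control replicate 3. With library totals 15 members were called, the all-gene median moved to −0.25 and the all-gene calls went from 62 lower of 237 to 167 lower of 242. On day 7 the same interaction called 0 members by edgeR and DESeq2 and 0% of genes, with 5 at an unadjusted p under 0.05, all lower, and a median of −0.27. Among the other pathway genes on day 3, Gmnn (−1.09) and Fbxo5 (−1.19) had lower and Mdm2 (0.85) and Ckap2l (1.26) higher effects in CD45+ cells. These were 2 lower and 2 higher of 99 tested, against 0.5% lower and 1.91% in either direction over all genes.

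Between the fractions, members called lower in CD45+ than in CD45- cells outnumbered those called higher in each treatment group. On day 3, of 47 members 20 were lower and 1 higher in control tumors (30.6% and 34.5% of all genes), 40 lower and 0 higher in treated tumors (37% and 39.9%), and 29 lower and 3 higher in abscopal tumors (35.3% and 39.8%). On day 7 the counts were 42 and 2 in control (38.6% and 41.7%), 41 and 1 in treated (31.6% and 34%) and 42 and 0 in abscopal tumors (33.8% and 35.7%). The members thus fell mostly on the lower side, while the genes tested were split nearly evenly between the sides. The median log2 fold changes of the members were −0.44, −1.32 and −0.58 on day 3 and −0.73, −1.20 and −1.11 on day 7. Library totals in place of TMM factors shifted the all-gene medians by amounts that left them between −0.39 and −0.13, and moved the all-gene calls of treated tumors on day 3 from 4587 lower and 4948 higher to 6088 lower and 3814 higher.

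Anln had the lowest fold change between fractions in all 6 groups, from −2.73 to −3.40. In day 3 control tumors it was at 6.15 ± 1.55 CPM in CD45+ and 48.9 ± 20.3 CPM in CD45- cells (SD, n = 4 and 4, log2 fold change −2.84, SE 0.3, adjusted p = 2e-10). Mcm2 and Rrm2 were among the 6 members with the smallest p in each group, with Rrm2 at 65.6 against 189 CPM in day 3 control (−1.33, adjusted p = 4.39e-07) and 33.0 against 208 CPM in day 3 treated tumors (−2.28, adjusted p = 1.77e-14). Ccnb1 was at 15.1 against 60.6 CPM in day 3 control tumors (−1.81, SE 0.275, adjusted p = 5.06e-07).

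Cenpa went the other way. It was at 116 CPM in CD45+ and 60.6 CPM in CD45- cells of day 3 control tumors (log2 fold change 1.12, SE 0.193, adjusted p = 4.6e-06), and it was also higher in CD45+ cells of day 3 abscopal (1.14, adjusted p = 1.3e-08), day 7 control (0.93, adjusted p = 5.12e-09) and day 7 treated tumors (0.53, adjusted p = 0.0336). In day 3 treated tumors it stood at 51.8 against 63.6 CPM (0.11, SE 0.157, adjusted p = 0.542), which became −0.30 with library totals, and in day 7 abscopal tumors at 64.6 against 57.6 CPM (0.42, adjusted p = 0.0552). The call of day 7 treated tumors was lost with library totals (0.36, adjusted p = 0.176). Pcna was called higher in day 3 abscopal tumors (0.31, adjusted p = 0.00154) and in day 7 control tumors (0.17, adjusted p = 0.0461), where library totals gave 0.05 and −0.05 and where its mean CPM was 157 in CD45+ and 163 in CD45- cells on day 7. Kif23 was called in day 3 abscopal tumors (0.31, adjusted p = 0.0188), with 0.05 under library totals.

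As a share of the CD45- level, the median member in CD45+ cells stood at 65.3%, 30.7% and 55.2% in control, treated and abscopal tumors on day 3, and at 52.3%, 39.1% and 39.5% on day 7. The 8 melanoma markers, which measure carry-over of tumor RNA into the CD45+ sort, had medians of 0.427%, 0.669% and 1.97% on day 3 and 0.583%, 0.519% and 0.665% on day 7. The day 3 abscopal median rested on replicates 1 and 4: it was 1.08% without replicate 4 and 0.452% without both, while the median member stood at 55.2% and 55.6%. The highest single marker stayed at 2.50% without both. The median member share was thus many times the median marker share in all 6 groups. How far the marker shares measure tumor RNA in the CD45+ sort was not tested. Among members the share in day 3 control tumors ran from 12.6% for Anln to 191% for Cenpa, with 3 above 100%.

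**Figure D5:**
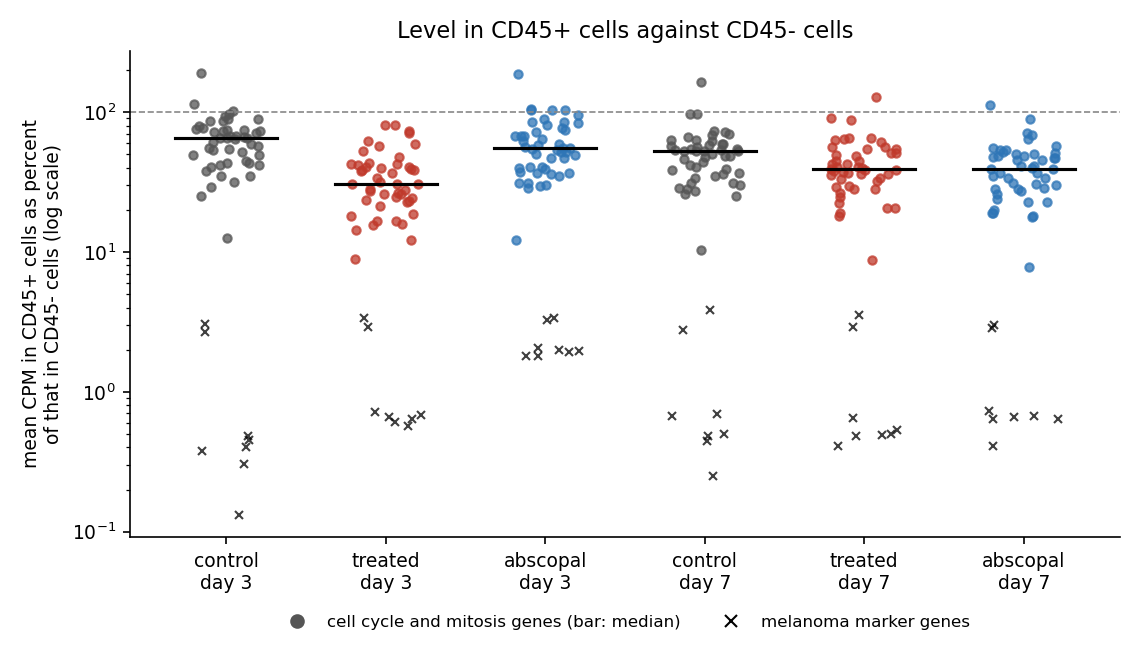
Mean CPM in CD45+ cells as a percent of mean CPM in CD45- cells (log axis) for the 47 tested members (points, bar at the median) and 8 melanoma markers (crosses), by treatment and day. Members have medians between 30.7% in day 3 treated and 65.3% in day 3 control tumors, and the melanoma marker medians stay between 0.427% and 1.97%.

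Some members share bases or names with other genes. In the GENCODE annotation of GRCm38, 6 members have an exon of another gene on the opposite strand within their last 500 bases, where QuantSeq reads fall: Ccna2 (Exosc9), Cdc20 (Elovl1), Kif20a (Cdc23), Prc1 (Rccd1), Mcm7 (Cops6) and Gins2 (Gse1). The strand setting of the counting is not given in the sources used here, so the values of these 6 are uncertain. None of them was among the 16 members called on day 3. The pseudogenes Ccnb2-ps, Pcna-ps2, Tyms-ps, Ccnb1-ps and Pcna-ps1 had 198, 13, 5, 3 and 0 counts over all 70 libraries, and at most 11 in a library. Counting any overlap of gene spans, 21 members overlap another annotated gene. Among the 16 called genes these are Plk1 (Gm44985), Ube2c (Tnnc2), Cdca8 (9930104L06Rik), Ndc80 (Gm23115) and Tacc3 (Tmem129), while the others, such as Cdk1 at chr10:69335146-69352938 and Cenpa at chr5:30666777-30674830, overlap none. Of the 15 called genes with a promoter window, 10 held TTTGAA, 12 CCAAT and 1 the E2F letters, against 11, 17 and 5 of the 26 tested genes with a window that were not called.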

How the data were processed

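RNA from 70 CD45+ and CD45- cell libraries was measured by QuantSeq. The deposited values are raw counts per gene that the authors made without normalization. Per the submitters' processing notes and the study's methods, reads were demultiplexed with bcl2fastq, trimmed with Trim Galore 0.5.0, aligned to GRCm38 with STAR 2.6.0, collapsed by molecular tag and counted with featureCounts. The strand setting is not given in the sources used here. Library totals were 887798 to 3820705 counts. An unnamed line in each CD45+ table held the column totals (100% of them) and was left out. No 2 libraries were within sampling noise of each other (smallest chi-square per degree of freedom 2.09 over 208 pairs within groups). 0 columns lacked a sample.

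Counts were tested with edgeR 4.0.16 in R 4.3.3 (quasi-likelihood test, TMM factors, filterByExpr with a minimum count of 10 and a minimum total of 15, Benjamini-Hochberg adjustment over all genes tested, threshold 0.05). A fraction and day were fitted together for treatment comparisons, both fractions of a day for comparisons of fractions, and both days of a fraction for comparisons of days. The steps were tested on simulated data. CPM was taken over the library total without TMM factors, whereas fold changes use them. DESeq2 1.42.0, library totals, no filter, only the groups compared, the replicate number as a block and leaving out each library were tried as alternatives. Figures were drawn with matplotlib 3.10.9 in Python 3.11.15.

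The members and lists were chosen with earlier results of these data known. The genes named were a fixed group of members, up to 6 called members per direction with the smallest p, the lowest and highest fold changes, members that failed the filter, and up to 3 called genes per direction and role of the pathway list. Other members were named to account for the whole list, and Plk1, Bub1 and Cdca8 were given values after those were seen.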

Additional observations from a re-analysis of the deposited data

Results flagged for a closer look

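The treated against control effect on day 3 differed between CD45+ and CD45- cells for 7 members by edgeR's quasi-likelihood interaction test, as given above: −1.35 for Ube2c, −1.20 for Cdca3, −1.07 for Mad2l1, −1.05 for Ccnb2, −1.01 for Cenpa, −0.95 for Rrm2 and −0.80 for Mcm6 on the log2 scale, each lower in CD45+ cells.

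Of 208 sets of 4 to 10 libraries examined, 12 held a library that lay far from the others by Dixon's gap ratio, where chance gives about 1 in 20. The 12 are thus close to the number that chance gives. The sets also overlap, since the summed members include those of each role. CD45- day 3 abscopal replicate 4 was the highest of its group for the summed members (5195 CPM, next 4365), for the mitosis and control members (3474 CPM, next 2836), for the regulators (581 CPM, next 472) and for the chromosomal passenger complex (791 CPM, next 469.5). CD45+ day 3 abscopal replicate 5 was the highest for the regulators (299.8 CPM, next 199) and the passenger complex (358 CPM, next 209.9). CD45- day 7 abscopal replicate 2 was the highest for the passenger complex (570.5 CPM, next 451). Among single genes, Bub1b was highest in CD45+ day 7 abscopal replicate 3 (12.7 CPM, next 8.94) and Mki67 in CD45- day 7 abscopal replicate 4 (96.5 CPM, next 78.4). Cenpa was lowest in CD45- day 3 treated replicate 5 (43.8 CPM, next 60.8), and Ube2c in CD45- day 3 abscopal replicate 6 (32.4 CPM, next 67.5). The neutrophil markers of CD45+ day 3 treated replicate 3 reached 26763 CPM (next 7889). What these libraries share beyond these values was not tested.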

How the results depend on the processing

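Of the recomputed counts of called members, 98 stayed within 1.5 times the reported count and 13 did not, leaving aside single libraries. For treated against control CD45+ cells on day 3, the 16 members became 26 with no filter and 9 with only the groups compared, and 4 to 22 when a library was left out. For treated against abscopal, the 3 became 12, 0 and, with the replicate number as a block, 8, and 0 to 8 without a library: 0 without treated replicates 1, 2, 3 or 6 or abscopal replicates 2, 5 or 6, 1 without abscopal replicate 3, 6 without treated replicate 4 and 8 without treated replicate 5. For the day 3 interaction of fraction and treatment, the 7 became 12 with DESeq2, 15 with library totals and 11 with no filter, and 0 to 15 without a library, with 15 without CD45+ treated replicate 5. In CD45- day 3 cells of treated against abscopal tumors, the 0 became 4 with DESeq2, 4 with no filter, 2 with the block and 0 to 2 without a library (2 without CD45- treated replicate 5). With no filter, 1 member was called in day 7 CD45+ cells of abscopal against control tumors and 1 in the CD45+ interaction of day and treatment, in both cases Cdk1, and the latter gave 0 to 2 without a library (2 without day 3 treated replicate 5). Leaving out a library also moved the calls over all genes. These ran from 334 to 1103 for day 3 CD45+ treated against control and from 264 to 862 for treated against abscopal. For the day 3 interaction of fraction and treatment they ran from 81 to 427. The causes were not tested.

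Among single members, 4 signs turned: Kif23 in the day 3 CD45+ treated against control comparison (−0.20 with library totals, −0.058 with no filter), Cenpa between fractions of day 3 treated tumors (−0.30 with library totals) and Pcna between fractions of day 7 control tumors (−0.047 with library totals). When a library was left out, signs of values near 0 turned in day 3 treated against control CD45+ cells for Aurka (−0.15 to 0.15), Kif23 (−0.051 to 0.10), Mki67 (−0.074 to 0.074), Pcna (−0.080 to 0.025) and Prc1 (−0.30 to 0.089). In day 3 CD45- cells Cdk1 did so for treated (−0.080 to 0.30) and abscopal (−0.37 to 0.0082) against control.

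Neither the labels nor the counts settle whether same-numbered libraries share a mouse: in no comparison did every same-numbered pair correlate over 0.1 (−0.07 to 0.26 in day 3 CD45+ treated against control). Between fractions, every CD45+ library was closest to the CD45- library of its own number in day 7 treated (3 of 3) and abscopal tumors (4 of 4), and 5 of 7 were in day 3 abscopal tumors, a hint from the data and not from the design. Day 3 treated tumors had 6 CD45+ and 7 CD45- libraries, and day 7 control tumors had 10 and 11. Equal numbers in these groups may thus belong to different tumors. With the block, the day 3 CD45+ comparison of treated with control called 22 members. The block was not fitted for the interactions. Leaving out abscopal replicates 1 and 4 of the day 3 CD45+ cells, chosen after seeing the data, gave 0 members against control, 3 for treated against abscopal and 32 between fractions. The 3 were not the same genes: Cenpa was called again, Cenpf (−0.67, adjusted p = 0.0674 by edgeR) and Ndc80 (−0.70, adjusted p = 0.128) were lost, and Cdc6 (−1.13, adjusted p = 0.0316) and Mcm6 (−0.57, adjusted p = 0.0488) were gained. Kif20a, Gins2, Cdc20 and Kif2c had few counts, and why was not tested.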
